A study of Homo sapiens with 4 samples.

Results

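The BCL2 family decides whether a stressed cell opens its mitochondria and dies. Here 10 of its genes were followed in RNA-seq counts of MKN-45, an established human gastric cancer cell line. The genes were chosen by name and by role, as 3 pro-survival genes (BCL2, BCL2L1, MCL1), 2 effectors (BAX, BAK1) and 5 BH3-only genes (BID, BBC3, PMAIP1, BCL2L11, BIK). All 10 were found among the 58735 genes of each count file, and all 10 had enough counts to be tested. The cells, grown in DMEM with serum, carried either a control lentivirus or one designed for overexpression of the transcription factor SIX2. Stably infected cells were selected with puromycin, so every library comes from puromycin-selected cells. The promoter that drives SIX2 is not given in the sources used here. There were 4 libraries, control 1, control 2, SIX2 1 and SIX2 2, with the numbers taken from the sample titles. The labels do not say whether libraries of the same virus came from separate cultures. Each number holds 1 library per virus label. When numbers are compared, the spread and SD therefore run across virus labels and include any effect of the label. When virus labels are compared, they run across numbers. How much of either spread is technical is not known.

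The library totals lay between 14792869 and 16777792 counts. SIX2 did not follow its label. It was at 24.6 and 35.7 CPM (counts per 1000000 of the scaled library) in controls 1 and 2, and at 23.0 and 38.3 CPM in the libraries labelled SIX2 1 and SIX2 2. Directions by virus below are therefore between labels, not between measured high and low SIX2. The libraries stood apart by number instead. By edgeR's quasi-likelihood test with Benjamini-Hochberg adjustment, 7151 of 16343 tested genes (43.8%) passed an adjusted p of 0.05 between numbers 2 and 1, 22.2% higher and 21.6% lower in number 2. SIX2 itself was among the genes higher in number 2 (log2 change 0.64, SE 0.13, adjusted p = 0.00119, edgeR). The labels give the number no meaning beyond replicate. MET, which is amplified in MKN-45, was at 220.3 to 246 CPM in the 4 libraries. The 10 gastric epithelial markers summed to 2785 and 2734 CPM in number 1 and to 4098 and 5374 CPM in number 2, most of it from KRT8 and KRT18, and KRT19 was near 0 (0 to 0.134 CPM). Of the 8 that were tested, 2 rose and 3 fell in number 2. KRT8 and KRT18 rose (log2 changes 0.87 and 0.79, adjusted p = 0.000150 and 0.000344, edgeR). CDH1 fell from 21.2 ± 1.12 to 6.69 ± 1.93 CPM (SD, n = 2; adjusted p = 2.06e-05), TFF1 fell by 2.46 on the log2 scale (adjusted p = 0.00276) and CEACAM5 fell from 17 and 32 counts to 0 and 0. Of 4 immune markers, PTPRC and CD3E had 0 counts in all libraries. The 6 fibroblast markers summed to 123 and 137 CPM in number 1 and to 289.7 and 280.2 CPM in number 2. Most of the number 2 sums came from COL1A1 (279.5 and 274.5 CPM). Of the 5 tested fibroblast markers, 2 rose (COL1A1 and PDGFRB) and 2 fell (LUM and DCN) in number 2. LUM was near 0 in number 2, and DCN went from 23.5 and 28.4 CPM to 0.658 and 1.01 CPM. The part of these marker differences in the results below was not tested.

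Pro-survival BCL2 proteins hold the effectors BAX and BAK1 in check at the mitochondrial outer membrane. BH3-only proteins are the stress sensors of the family. They occupy the groove of the pro-survival proteins or activate the effectors directly, and the effectors then form pores that release cytochrome c and start the caspase cascade. Many epithelial cancer cells depend on BCL-XL, the long protein of BCL2L1, and on MCL1, a protein with rapid turnover, and PMAIP1 encodes NOXA, which binds MCL1 preferentially. Gene counts cannot tell BCL-XL from the pro-apoptotic short form of BCL2L1, and transcript levels do not give protein levels.

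The 250 bases before an annotated start site are shown for BCL2L1 and PMAIP1, the members with the largest difference between numbers, and for BAX, the member that was highest in number 2 relative to number 1. RefSeq promoters (GRCh38.p14) were available for 8 of the 10 members, and each sequence reads 5′ to 3′ on the gene's strand. The GENCODE start of each of these 3 genes lies inside its window. Capitals mark matches to the motifs searched on both strands, namely the E-box CACGTG, the GC box GGGCGG, the AP-1 motif TGANTCA and the NF-kB motif. The letters TATAAA were searched as well.
PMAIP1 (chr18:59899746-59899995, plus strand): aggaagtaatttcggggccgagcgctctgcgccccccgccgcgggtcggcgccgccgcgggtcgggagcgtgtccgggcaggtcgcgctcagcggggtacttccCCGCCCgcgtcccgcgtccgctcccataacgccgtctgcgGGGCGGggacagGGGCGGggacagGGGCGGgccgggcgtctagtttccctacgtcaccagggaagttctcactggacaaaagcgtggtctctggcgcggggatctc
BCL2L1 (chr20:31723964-31724213, minus strand): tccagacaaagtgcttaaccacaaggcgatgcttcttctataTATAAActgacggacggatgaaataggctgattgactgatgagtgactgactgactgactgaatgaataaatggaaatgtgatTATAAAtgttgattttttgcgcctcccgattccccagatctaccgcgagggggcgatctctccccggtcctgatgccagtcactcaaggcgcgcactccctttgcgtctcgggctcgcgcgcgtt
BAX (chr19:48954625-48954874, plus strand): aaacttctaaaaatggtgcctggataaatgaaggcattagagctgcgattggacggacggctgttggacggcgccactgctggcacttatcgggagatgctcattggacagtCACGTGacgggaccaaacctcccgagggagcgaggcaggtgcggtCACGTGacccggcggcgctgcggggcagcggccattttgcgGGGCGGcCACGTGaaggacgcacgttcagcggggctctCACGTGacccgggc
The BAX window held CACGTG at 4 places and GGGCGG at 1. CACGTG occurred in 6.31% of 34788 windows of the same length, and 5 of those windows held 4 or more. The PMAIP1 window held GGGCGG at 4 places, the first of them on the opposite strand. That motif occurred in 42.6% of windows, and 7.61% held 4 or more. The BCL2L1 window held TATAAA at 2 places, starting at -208 and -125 from the start site, a motif found in 10.8% of windows. No match to TGANTCA (6.59% of windows) or the NF-kB motif (9.95%) was found in these 3 windows. This says only that the letters are not there. Another BCL2L1 window, before the start site at 31722868, is not shown and held none of the searched motifs.

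Between numbers, 7 of the 10 members fell in number 2 and 0 rose, against 21.6% of all tested genes lower and 22.2% higher. The median log2 change of the 10 members was -0.50, and that of all tested genes was 0.01. The BH3-only genes PMAIP1, BID, BCL2L11 and BBC3, the pro-survival genes BCL2L1 and MCL1 and the effector BAK1 fell, so the lower transcripts came from all 3 roles. BCL2, BAX and BIK did not pass the threshold. In these bulk libraries, fewer cells of a type and less RNA per cell cannot be told apart.

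**Figure D1:**
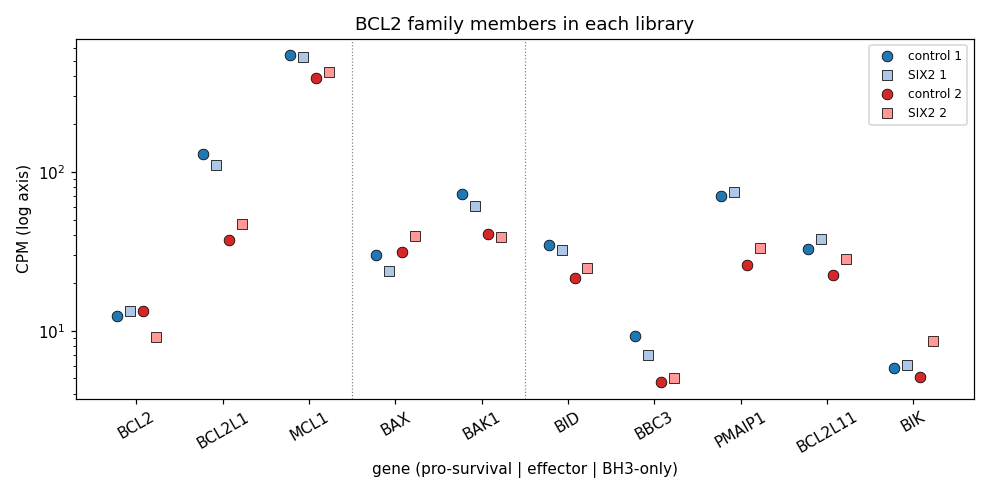
CPM (log axis) of each of the 10 members in the 4 libraries, with circles for control and squares for SIX2-labelled libraries, blue for number 1 and red for number 2. The red points of BCL2L1, MCL1, BAK1, BID, BBC3, PMAIP1 and BCL2L11 lie below both blue points.

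Among pro-survival genes, BCL2L1 (ENSG00000171552, chromosome 20, 31664452 to 31723989, minus strand, GRCh38) showed the largest difference of the 10 members. It was at 129.8 CPM in control 1 and 111 CPM in SIX2 1, and at 37.0 CPM in control 2 and 46.8 CPM in SIX2 2. Both libraries numbered 2 lay far below both numbered 1. Mean CPM came to 120.4 ± 13.3 for number 1 and to 41.9 ± 6.94 for number 2 (SD, n = 2), 2.88-fold apart. The log2 difference, -1.52 with SE 0.13 (edgeR, adjusted p = 1.53e-06), was larger in size than that of 90.3% of tested genes. The antisense gene ABALON overlaps exons of BCL2L1. With the strand setting unknown, its reads in the shared exons cannot be told apart from those of BCL2L1. ABALON had 13 to 59 counts of its own, against 618 to 1944 for BCL2L1. The part of ABALON in the BCL2L1 counts was not tested.

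MCL1 (ENSG00000143384, chromosome 1, 150574551 to 150579738) was the most abundant member in all 4 libraries. It stood at 542 CPM in control 1 and 529.6 CPM in SIX2 1, against 391 and 424 CPM in control 2 and SIX2 2. The numbers did not overlap, and the log2 change was -0.40 (SE 0.11, adjusted p = 0.00850, edgeR), a smaller fall than that of BCL2L1. The call was lost without control 1 (adjusted p = 0.147) or SIX2 1 (adjusted p = 0.104). BCL2 itself (ENSG00000171791, chromosome 18, 63123346 to 63320128) was at 12.4, 13.4, 13.3 and 9.13 CPM in control 1, SIX2 1, control 2 and SIX2 2. Its numbers overlapped, since control 2 lay between the libraries numbered 1 (log2 change -0.20, SE 0.20, adjusted p = 0.446, edgeR).

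The effectors differed from each other. BAK1 (ENSG00000030110, chromosome 6, 33572547 to 33580293), which resides on the mitochondrial outer membrane, stood at 72.9 CPM in control 1 and 60.5 CPM in SIX2 1, against 40.5 and 39.0 CPM in control 2 and SIX2 2. Its log2 difference was -0.74 with SE 0.12 (edgeR, adjusted p = 0.000321), and number 1 was 1.68-fold higher. BAX (ENSG00000087088, chromosome 19, 48954815 to 48961798), which shuttles between cytosol and mitochondria, stood at 30.1 CPM in control 1 and 23.9 CPM in SIX2 1, against 31.2 and 39.2 CPM in control 2 and SIX2 2. Both libraries numbered 2 were above both numbered 1, but control 1 and control 2 were close. The log2 change of 0.38 (SE 0.15) did not pass the threshold (adjusted p = 0.0591, edgeR). It passed in 5 of 10 alternative fits, including upper-quartile scaling (adjusted p = 0.0474) and the fit with no filter on low counts (adjusted p = 0.0342).

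Of the BH3-only genes, PMAIP1 (ENSG00000141682, chromosome 18, 59899948 to 59904306) fell most. It stood at 70.7 CPM in control 1 and 74.4 CPM in SIX2 1, against 26.1 and 33.1 CPM in control 2 and SIX2 2. The means of 72.5 ± 2.66 and 29.6 ± 4.96 CPM (SD, n = 2) differed by -1.29 (log2) with SE 0.13 (edgeR, adjusted p = 5.52e-06), larger in size than in 87.5% of tested genes. BCL2L1 and PMAIP1, a pro-survival gene and a BH3-only gene, were thus the members with the largest falls.

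BID (ENSG00000015475, chromosome 22, 17734138 to 17774770), the member that caspase-8 cleaves to link death receptors to mitochondria, was at 34.4 and 32.2 CPM in number 1 against 21.5 and 24.7 CPM in number 2 (control first in each). Its log2 change was -0.53 (SE 0.13, adjusted p = 0.00565, edgeR), and the call was lost without control 1 (adjusted p = 0.0617). BBC3 (ENSG00000105327, chromosome 19, 47220822 to 47232766), which encodes PUMA, a potent BH3-only protein, was a low member. It was at 9.28 and 7.04 CPM in number 1 against 4.72 and 5.01 CPM in number 2, that is 139, 116, 79 and 79 counts. The log2 change was -0.74 (SE 0.23, adjusted p = 0.0189, edgeR), and the call was lost without control 1 (adjusted p = 0.236) or with DESeq2 (adjusted p = 0.0922).

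BCL2L11 (ENSG00000153094, chromosome 2, 111119378 to 111168447) encodes BIM, which binds all pro-survival members. It stood at 32.5 CPM in control 1 and 37.8 CPM in SIX2 1, against 22.4 and 28.1 CPM in control 2 and SIX2 2, with no overlap between numbers. The log2 change was -0.48 (SE 0.14, adjusted p = 0.0166, edgeR), lost without SIX2 1 (adjusted p = 0.173) or with DESeq2 (adjusted p = 0.0533). The long noncoding gene MIR4435-2HG overlaps its exons on the opposite strand. It had 621, 772, 386 and 388 counts in control 1, SIX2 1, control 2 and SIX2 2, against 486, 622, 374 and 443 for BCL2L11, so it too was lower in number 2. Its part in the BCL2L11 counts was not tested. BIK (ENSG00000100290, chromosome 22, 43110748 to 43129712), a BH3-only protein of the endoplasmic reticulum, was at 5.81 and 6.07 CPM in number 1 against 5.08 and 8.56 CPM in number 2. Its numbers overlapped (log2 change 0.20, SE 0.26, adjusted p = 0.577, edgeR).

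Compared per length, as CPM per kilobase of merged exons, the order of the members shifted between numbers. MCL1 came first in each library, at 124 and 121 CPM per kilobase in number 1 and 89.3 and 97.1 in number 2 (control first). BCL2L1 came second in number 1, at 39.2 and 33.5 CPM per kilobase, and at rank 5 of 10 in number 2, at 11.2 and 14.1. Behind it in number 1 stood BAK1 (33.0 and 27.4) and PMAIP1 (31.6 and 33.3), whose ranges overlapped. In number 2 BAK1 stood second (18.3 and 17.7 CPM per kilobase). The levels of BAX (12.04 and 15.1), PMAIP1 (11.7 and 14.8) and BCL2L1 overlapped there, and by the longest transcript BAX stood second and BCL2L1 at rank 4 and 3 in control 2 and SIX2 2. BBC3 and BCL2 were the lowest in all libraries, BCL2 at 0.776 to 1.13 CPM per kilobase.

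The summed level of the 10 members was 262 and 247 CPM per kilobase in number 1 and 159 and 179.9 in number 2. Pro-survival genes held 62.7% and 63.0% of the summed level in control 1 and SIX2 1, and 64.0% and 62.3% in control 2 and SIX2 2. Effectors held 17.0% and 14.8% in number 1 and 19.1% and 18.2% in number 2. BH3-only genes held 20.3% and 22.2% in number 1 and 16.8% and 19.5% in number 2. Within the pro-survival share, MCL1 held 47.3% and 49.0% of the family in number 1 and 56.3% and 54.0% in number 2, and BCL2L1 held 14.9% and 13.6% against 7.03% and 7.85%. The ratio of MCL1 to BCL2L1 was 3.17 and 3.61 in number 1 and 8.01 and 6.88 in number 2. The ratio of BAK1 to BAX was 2.83 and 2.96 in number 1 and 1.52 and 1.17 in number 2. With the longest transcript as the length, that ratio was 1.49 and 1.55 in number 1 and 0.799 and 0.612 in number 2, so which effector was higher in number 2 depends on the length used. These ratios and shares are descriptions of single libraries and carry no test.

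**Figure D2:**
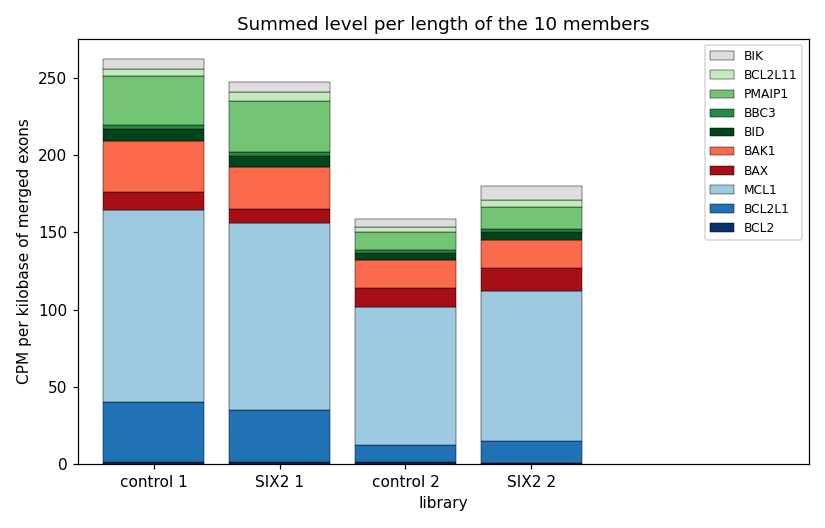
CPM per kilobase of merged exons of the 10 members, stacked for each library, with pro-survival genes in blue, effectors in red, and BH3-only genes in green except BIK in grey. The summed level is 262 and 247 in the libraries numbered 1 and 159 and 179.9 in those numbered 2, while the blue share stays between 62.3% and 64.0%.

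Between virus labels, 0 of the 10 members passed the threshold, as did 0 of 16343 genes (0%). By edgeR 12 genes had an unadjusted p under 0.05, by DESeq2 7 and by limma-voom 10 and each tool made 0 calls. None of the 12 was a member. In this fit, with virus label as its only term, 0% of genes changed 4-fold were recovered in simulated counts that kept the differences between numbers. With number as a block beside the label, 8 genes passed and 0 of them were members. MCL1 averaged 467 ± 107 CPM in controls and 477 ± 74.3 CPM in SIX2-labelled libraries, and BCL2L1 at 83.4 ± 65.7 and 78.9 ± 45.5 CPM (SD, n = 2). The CPM ranges of the groups did not overlap for 1 of the 10 members, BIK, against 11.8% of all tested genes. BIK was at 5.81 and 5.08 CPM in controls and 6.07 and 8.56 CPM in SIX2-labelled libraries (log2 change 0.42, SE 0.38, adjusted p = 1.00, edgeR). The step in number 1 was small, from 87 to 100 counts.

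**Figure D3:**
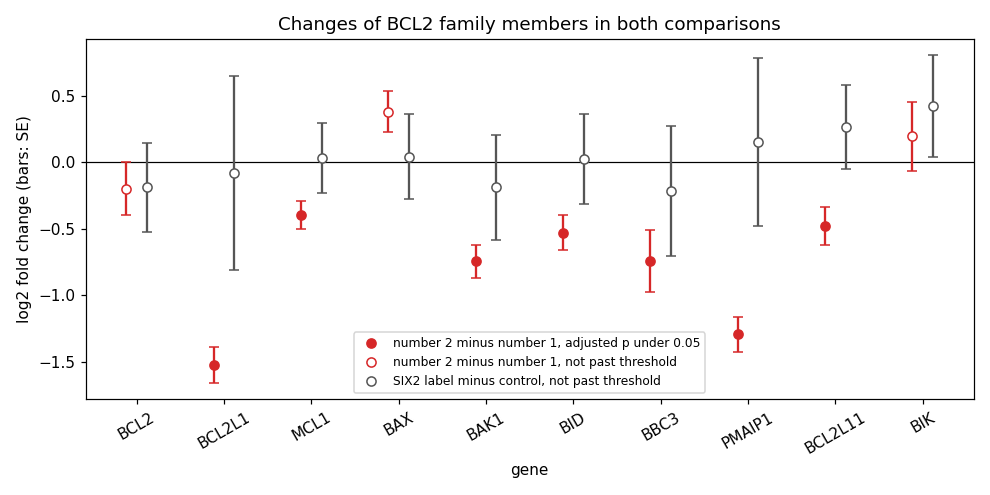
Log2 fold changes of the 10 members with their standard errors, in red for number 2 minus number 1 and in grey for SIX2 label minus control; filled points passed an adjusted p of 0.05. All grey points are open, and the lowest red points are BCL2L1 at -1.52 and PMAIP1 at -1.29.

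Within a number there is 1 library per label, so ratios have no replicate check, and their exact binomial 95% intervals cover counting error only. BCL2L11 was higher in the SIX2-labelled library in both numbers, at ratios of 1.16 (1.03 to 1.31) in number 1 and 1.26 (1.09 to 1.44) in number 2. PMAIP1 had ratios of 1.05 (0.969 to 1.14) and 1.27 (1.12 to 1.44), and BIK of 1.04 (0.776 to 1.41) and 1.68 (1.27 to 2.24). BAK1 was the only member with both ratios below 1, at 0.830 (0.761 to 0.905) and 0.963 (0.862 to 1.08). BBC3 had ratios of 0.758 (0.588 to 0.978) and 1.06 (0.766 to 1.47), MCL1 of 0.976 (0.947 to 1.01) and 1.09 (1.05 to 1.12), and BID of 0.935 (0.827 to 1.06) and 1.15 (0.992 to 1.33). BCL2L1 and BAX went opposite ways in the numbers. The ratio of BCL2L1 was below 1 in number 1, at 0.856 (0.802 to 0.912), and above 1 in number 2, at 1.27 (1.14 to 1.41). That of BAX went from 0.794 (0.692 to 0.911) to 1.26 (1.12 to 1.42). BCL2 had ratios of 1.08 (0.885 to 1.32) and 0.687 (0.554 to 0.852). The share of all tested genes with such opposite ratios was not counted. Whether the label acts differently in the numbers could not be tested with 1 library in each cell of the layout.

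The rest of the BCL2 family moved between numbers in both directions. The counts of this list and of those below stand beside 22.2% of all tested genes higher and 21.6% lower in number 2. These lists were chosen with earlier results of these data known. Of 13 further family genes 10 were tested, and 4 rose and 3 fell in number 2. BOK, an effector relative of BAX and BAK1, fell most, from 63.4 and 59.8 CPM in number 1 to 7.42 and 6.28 CPM in number 2. Its log2 difference, -3.17 with SE 0.14 (edgeR, adjusted p = 3.62e-09), was larger in size than that of each of the 10 members. The BH3-only gene HRK had a log2 change of -1.89 (SE 0.25, adjusted p = 4.46e-05) and fell from 9.40 ± 0.680 to 2.53 ± 0.452 CPM (SD, n = 2), and BCL2L15 one of -1.91 (SE 0.28, adjusted p = 0.000115). BCL2L2, which encodes the pro-survival protein BCL-W, rose from 27.1 ± 3.45 to 38.0 ± 1.22 CPM (SD, n = 2), a call lost without SIX2 1 (adjusted p = 0.195). BMF, a BH3-only gene, rose from 2.60 ± 0.274 to 5.25 ± 0.999 CPM (SD, n = 2). Its adjusted p was 0.0108 by edgeR, 0.0589 by DESeq2 and 0.0731 without control 1.

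BNIP3 and BNIP3L, mitophagy receptors of the family that respond to low oxygen, rose together. BNIP3 went from 49.95 and 42.5 CPM in number 1 to 87.7 and 98.9 CPM in number 2 (log2 change 1.01, SE 0.12, adjusted p = 2.32e-05, edgeR). BNIP3L went from 31.6 and 33.3 to 71.8 and 84.5 CPM (log2 change 1.27, SE 0.12, adjusted p = 3.53e-06, edgeR). BAD, BCL2L12 and BCL2L13 did not pass, at log2 changes of 0.05, -0.13 and -0.20. The pro-survival gene BCL2A1 had 3, 2, 0 and 0 counts in control 1, SIX2 1, control 2 and SIX2 2, and BCL2L10 had 1, 0, 0 and 0. BCL2L14 had at most 8 counts, and these 3 genes were not tested.

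Downstream of the mitochondria, of 7 apoptosome and caspase genes 2 rose and 2 fell in number 2, with a median log2 change of 0.03. The initiator caspase CASP9 rose from 87.3 ± 3.95 to 119 ± 10.1 CPM (SD, n = 2; adjusted p = 0.00581, edgeR). CASP9 lost its call without control 1 (adjusted p = 0.130) or SIX2 1 (adjusted p = 0.0520). CYCS, which encodes cytochrome c and has many pseudogenes, had a log2 change of -0.31 (adjusted p = 0.0362), lost without control 1 (adjusted p = 0.423), without SIX2 1 (adjusted p = 0.122) or with virus label as a term (adjusted p = 0.0678). CASP2 was at 87.6 ± 8.07 and 106 ± 2.78 CPM and did not pass (adjusted p = 0.0630, edgeR). It passed with upper-quartile scaling (0.0459) and without control 2 (0.0238) or SIX2 2 (0.00821).

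Among 9 genes of mitochondrial apoptosis proteins 3 rose and 1 fell. The adenine nucleotide carrier SLC25A5 rose, with a log2 change of 0.82 (SE 0.11, edgeR adjusted p = 5.45e-05), and so did the outer membrane channel VDAC3, at 0.49 (adjusted p = 0.00287), while VDAC1 fell, at -0.40 (adjusted p = 0.00679). VDAC3 lost its call without control 1 (adjusted p = 0.0783). VDAC1 lost it without control 1 (adjusted p = 0.145) or SIX2 1 (adjusted p = 0.0906). SLC25A5 and VDAC1 have processed pseudogenes and are uncertain. HTRA2, a protease released from mitochondria, rose by 0.44 (adjusted p = 0.0229), with DESeq2 at adjusted p = 0.0926, 0.143 without control 1 and 0.152 without SIX2 1. SLC25A4 was at 33.4 ± 1.48 and 42.0 ± 7.34 CPM (SD, n = 2) and did not pass (adjusted p = 0.0690, edgeR), but passed without control 2 (0.000135).

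The inhibitor of apoptosis (IAP) family, whose members restrain caspases or death receptor signals, had 3 of 7 genes lower and 0 higher in number 2. Over all tested genes, 43.8% passed in either direction. BIRC3, which encodes cIAP2 and is induced by NF-kB, fell from 96.4 and 108 CPM in number 1 to 24.3 and 21.0 CPM in number 2 (log2 change -2.18, SE 0.13, adjusted p = 2.94e-08, edgeR). BIRC7 fell from 14.2 ± 1.47 to 0.986 ± 0.0405 CPM (log2 change -3.84, SE 0.26, adjusted p = 1.21e-07). BIRC2, which encodes cIAP1, fell from 105 ± 9.15 to 62.7 ± 8.58 CPM (SD, n = 2; adjusted p = 0.000343, edgeR). XIAP, the direct caspase inhibitor, was at 52.6 ± 1.48 and 59.3 ± 9.70 CPM (SD, n = 2) and did not pass (adjusted p = 0.295). It passed without SIX2 2 (adjusted p = 0.00866). NAIP was at 0.546 and 0.986 CPM and did not pass.

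Of 12 tested death receptor genes 1 rose and 3 fell. FADD, the adaptor that joins the receptors to caspase-8, fell from 17.5 ± 3.16 to 8.90 ± 1.11 CPM (SD, n = 2; log2 change -0.97, SE 0.19, adjusted p = 0.000889, edgeR). The TNF receptor gene TNFRSF1A rose by 0.44 on the log2 scale (adjusted p = 0.00784), at adjusted p = 0.0777 without control 1 and 0.10 without SIX2 1. The TRAIL receptor genes TNFRSF10B and TNFRSF10D had log2 changes of -0.29 and -0.48 (adjusted p = 0.0379 and 0.0353, edgeR). DESeq2 called neither (adjusted p = 0.0593 and 0.153). TNFRSF10B also lost its call without control 1 (adjusted p = 0.276), without SIX2 1 (0.254), with upper-quartile scaling (0.0520), with no filter (0.0640) and with virus label as a term (0.0839), and TNFRSF10D without SIX2 1 (0.354). TNFSF10, the gene of the ligand TRAIL, was at 0.534, 0.0607, 0.658 and 1.58 CPM in control 1, SIX2 1, control 2 and SIX2 2, with adjusted p = 0.0506. Its few counts passed in 6 of 10 alternative fits, the lowest adjusted p being 0.00433 without control 2.

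**Figure D4:**
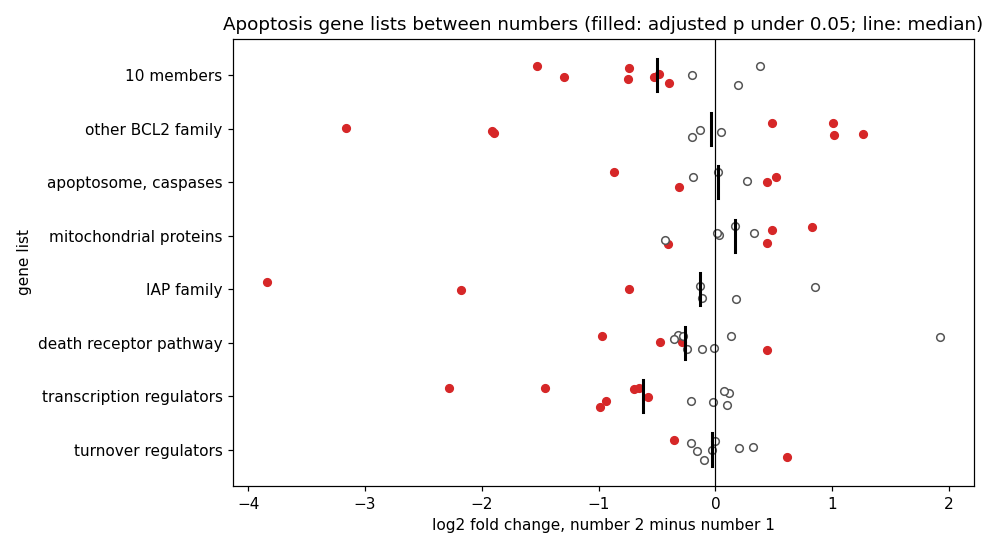
Log2 fold change, number 2 minus number 1, of each tested gene in 8 lists, with filled points past an adjusted p of 0.05 and a bar at the median of each list. The median is -0.50 for the 10 members, -0.62 for regulators of BCL2 family transcription and 0.03 for apoptosome and caspase genes.

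Among 12 genes whose products are known to regulate BCL2 family transcription, 7 fell and 0 rose in number 2, with a median log2 change of -0.62. The other 5 regulators did not pass the threshold. Over all tested genes, 21.6% fell and 22.2% rose. Whether the falls of regulators had a part in those of the members was not tested. FOXO1 fell from 21.8 and 23.9 CPM in number 1 to 6.10 and 3.23 CPM in number 2 (log2 change -2.28, SE 0.23, adjusted p = 5.65e-06, edgeR). FOXO3, which like FOXO1 is known to activate BCL2L11, fell from 29.9 ± 1.94 to 20.0 ± 2.66 CPM (adjusted p = 0.00507; 0.0514 without SIX2 1). RELA fell from 177 ± 3.61 to 92.2 ± 5.62 CPM (SD, n = 2; adjusted p = 1.49e-05, edgeR). It encodes a subunit of NF-kB, which is known to activate BCL2L1 and BIRC3. MYC fell from 236 ± 0.343 to 146 ± 12.9 CPM (adjusted p = 0.000201) and the stress factor ATF3 from 45.5 ± 3.70 to 23.0 ± 5.34 CPM (SD, n = 2; adjusted p = 0.000205, edgeR). The calls of TP63 and TP73, also among the 7, were lost with DESeq2 (adjusted p = 0.188 and 0.169) and when either library numbered 1 was left out. TP63 also lost its call without SIX2 2 (log2 change -1.05), and TP73 without control 2 (log2 change -0.48).

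Genes that act on the MCL1 and BIM proteins after translation had 1 of 9 higher and 1 lower in number 2, with a median log2 change of -0.03. BTRC, a ubiquitin ligase subunit, rose from 31.3 ± 1.80 to 48.0 ± 1.37 CPM (SD, n = 2; adjusted p = 0.000957, edgeR). The deubiquitinase gene USP9X, whose product stabilises MCL1, had a log2 change of -0.36 (SE 0.12, adjusted p = 0.0321). Its call was lost without control 1 (adjusted p = 0.0922), SIX2 1 (0.272) or SIX2 2 (0.0514). HUWE1, a ligase for MCL1, was at 629 and 682 CPM in number 1, at 967 CPM in control 2 and at 669 CPM in SIX2 2. Control 2 alone lay above the rest, and the gene did not pass (adjusted p = 0.0990, edgeR). It passed without SIX2 2 (adjusted p = 1.11e-10) and with no filter on low counts (adjusted p = 0.0101). FBXW7 had a log2 change of -0.21 and did not pass. In the 7 lists beside the 10 members, 0 genes passed between virus labels.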

How the data were processed

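RNA was extracted with Trizol, prepared with an Illumina TruSeq kit and sequenced on a NovaSeq, per the labels' protocols. Each deposited file lists raw counts by Ensembl gene with gene length, per the file headers. The aligner, the counting program and whether strand was used: not given in the sources used here. A mouse build, mm9, appears in the submitters' processing notes, yet each of the 58735 gene identifiers matched human GENCODE release 29 (GRCh38), 58724 with the same coordinates.

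The tests ran in edgeR 4.0.16 under R 4.3.3: filterByExpr, TMM scaling, and a quasi-likelihood test with number or virus label as the only term. Adjustment covered the 16343 tested genes and calls were made at 0.05. Levels per length used the gene lengths in the files, which equal the merged exons for the members. Standard errors came from the F statistic. Alternatives were DESeq2 1.42.0 (also its size factors), limma 3.58.1 voom, upper-quartile factors, no filter, the other label as a term, and leaving out each library.

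The members and gene lists were chosen with earlier results of these data known, as was the comparison of numbers. The text names all members, the other BCL2 family genes, and the 5 genes with the smallest adjusted p between numbers in each further list. FOXO3 and SIX2 were also named by rule, and a few items that the rule names are not reported here. On simulated counts over 15977 genes, the comparison of numbers recovered 52.2%, 97.0% and 100% of genes changed 1.5-fold, 2-fold and 4-fold, with 12 false calls. The comparison of labels recovered 0% at each size over 16083 genes, with 0 false calls. Both simulations gave every gene the same assumed spread, and that of numbers held no other difference between numbers. Changes were put into 67, 67 and 66 genes with higher counts, so the percentages need not hold for the data.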

Additional observations from a re-analysis of the deposited data

Results flagged for a closer look

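BCL2L1 and BAX differed between the virus labels in opposite directions in the numbers, beyond counting error. For BCL2L1 the ratio of the SIX2-labelled library to the control was 0.856 in number 1 and 1.27 in number 2. For BAX the ratio was 0.794 in number 1 and 1.26 in number 2. The difference between numbers was not tested, since each ratio rests on 1 library per label.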

How the results depend on the processing

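Between numbers, the count of members past the threshold was 7, and it was 5 with DESeq2, 7 or 8 under the other scalings, tools and filters, and between 5 and 10 when 1 library was left out. The 3 members BCL2L1, PMAIP1 and BAK1 passed in all 10 alternatives. BCL2 and BIK passed only without control 2, at log2 changes of -0.48 and 0.54. The count over all genes was 7151 of 16343 (43.8%), and it lay between 4853 and 8416 when 1 library was left out. With DESeq2 fewer genes passed over all genes as well, out of more tested. With upper-quartile factors, where 8 members passed, slightly more of the same 16343 genes passed than in the main fit. With DESeq2's size factors and with limma-voom, where 7 members passed, slightly fewer of the 16343 did. Whether the count of members follows the share of all genes that passed in the same alternative was not tested. Between virus labels the members had 0 calls in all 10 alternatives. In the paired fit, with the title number as a replicate block, 8 genes passed over all 16343 and 0 of them were members. The differences between numbers in the controls and in the SIX2-labelled libraries correlated at 0.87 across genes, but the labels do not say that a number marks a shared culture. With the longest transcript as the length, pro-survival genes held 60.7%, 61.2%, 60.4% and 58.4% of the family's summed level in control 1, SIX2 1, control 2 and SIX2 2, and effectors 21.6% in control 2 and 21.4% in SIX2 2. The low counts of BBC3 and BIK limit what could be seen for them.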
